A study of Mus musculus with 4 samples.

Results

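The aminoacyl tRNA synthetase genes are described here by the V5 CUT&RUN peaks at their promoters in a Foxr2 p53LOF neurosphere line. Members were taken from the protein-coding genes of GENCODE M21 by symbol (1 letter, "ars" and an optional 1 or 2, plus Farsa, Farsb, Eprs and Tarsl2) and limited to tRNA synthetases, which gave 38 of 21853 genes, 21 for cytoplasmic enzymes and 17 for mitochondrial enzymes, whose symbols end in 2. Tarsl2 is a cytoplasmic enzyme despite its final digit. Pstk, a kinase that acts on charged tRNA and no synthetase, was moved to a list of partner genes. The rule uses no measured value, although it was written with earlier results of these data known.

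CUT&RUN locates a protein on chromatin by directing a nuclease to an antibody bound to it, and the fragments released are sequenced. The Foxr2 p53LOF line (2 replicates) came from tumors made in C57BL/6J mice by in utero electroporation (IUE), with a piggyBac vector in which the CAG promoter drives FOXR2 carrying a C-terminal V5 tag followed by GFP, and with Cas9 and a guide RNA against Trp53. The V5 control (2 replicates) was the same antibody on cells of a separate IUE model of C57BL/6J mice with genotype H3.3G34R and no tag, so the absence of the tag and the different tumor model cannot be told apart. Cells of both groups were cross-linked with 0.1% formaldehyde for 1 minute, each group's label describes a cell line, and no source says whether replicates were separate cultures, so the spread between them may be technical.

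Aminoacyl tRNA synthetases attach each amino acid to its tRNA and so supply the ribosome with charged tRNA. Cytoplasmic and mitochondrial translation mostly use separate enzymes, all encoded in the nucleus, while Gars and Kars encode enzymes for both compartments. Several cytoplasmic enzymes are held together in the multisynthetase complex. Many cytoplasmic synthetase genes are targets of ATF4, the transcription factor of the amino acid response, which acts through CARE sequences.

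Promoter sequence from RefSeq (GRCm38.p6, the same build as mm10) was matched for 28 of the 38 genes, 14 of each compartment. The 120 bases before the RefSeq start of 11 of them are shown, read 5′ to 3′ on the strand of the gene. Iars had the highest cytoplasmic peak, and capitals mark the E-box CACGTG.

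Iars, chr13:49682010-49682129 (+ strand): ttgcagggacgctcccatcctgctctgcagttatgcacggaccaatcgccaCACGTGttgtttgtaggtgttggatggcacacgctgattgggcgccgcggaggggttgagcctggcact

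Aars and Tars held the CARE sequence TGATGCAA, marked in capitals and read here from the other strand as TTGCATCA.

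Aars, chr8:111033722-111033841 (+ strand): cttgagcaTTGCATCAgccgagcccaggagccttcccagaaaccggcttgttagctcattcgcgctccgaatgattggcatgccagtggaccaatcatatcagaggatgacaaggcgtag
Tars, chr15:11399659-11399778 (- strand): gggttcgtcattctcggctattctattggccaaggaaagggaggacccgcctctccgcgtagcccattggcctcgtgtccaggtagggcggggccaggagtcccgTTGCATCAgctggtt

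Mars, Sars, Farsa, Cars2 and Mars2 held an ETS core, CCGGAAG or its reverse complement CTTCCGG, in capitals, within 30 bases of the start.

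Mars, chr10:127311787-127311906 (- strand): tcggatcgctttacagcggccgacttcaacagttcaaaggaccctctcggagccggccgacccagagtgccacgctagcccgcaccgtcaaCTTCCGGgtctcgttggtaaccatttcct
Sars, chr3:108445260-108445379 (- strand): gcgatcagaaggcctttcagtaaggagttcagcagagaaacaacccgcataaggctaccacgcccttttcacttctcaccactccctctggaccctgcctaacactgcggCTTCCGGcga
Farsa, chr8:84856866-84856985 (+ strand): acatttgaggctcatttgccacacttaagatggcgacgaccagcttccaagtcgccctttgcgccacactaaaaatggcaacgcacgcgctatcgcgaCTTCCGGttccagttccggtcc
Cars2, chr8:11550772-11550891 (- strand): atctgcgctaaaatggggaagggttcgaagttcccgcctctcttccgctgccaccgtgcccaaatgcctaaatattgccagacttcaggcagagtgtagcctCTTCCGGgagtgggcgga
Mars2, chr1:55237057-55237176 (+ strand): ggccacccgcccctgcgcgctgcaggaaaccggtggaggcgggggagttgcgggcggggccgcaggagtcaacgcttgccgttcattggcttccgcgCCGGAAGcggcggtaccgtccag

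Wars2 and Ears2 had the highest mitochondrial peaks and Vars2 the lowest by the lower fold among the genes matched, and none of the 4 sequences searched lay in the bases shown.

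Wars2, chr3:99140970-99141089 (+ strand): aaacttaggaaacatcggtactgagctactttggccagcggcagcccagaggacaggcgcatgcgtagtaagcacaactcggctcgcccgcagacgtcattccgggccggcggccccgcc
Ears2, chr7:122067087-122067206 (- strand): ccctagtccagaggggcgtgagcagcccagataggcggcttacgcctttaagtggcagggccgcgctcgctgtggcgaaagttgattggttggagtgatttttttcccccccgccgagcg
Vars2, chr17:35667593-35667712 (- strand): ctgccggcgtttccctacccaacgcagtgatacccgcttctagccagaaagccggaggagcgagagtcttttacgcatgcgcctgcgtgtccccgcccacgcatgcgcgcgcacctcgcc

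A promoter peak was a deposited peak that came within 1 kb of any protein-coding transcription start of the gene. Every one of the 38 synthetase genes had a promoter peak in Foxr2 p53LOF replicate 1 and in replicate 2. The background was high, since 53.4% of all protein-coding genes had one in replicate 1, 54.4% in replicate 2 and 51.5% in both. Neither V5 control replicate listed a promoter peak at any of the 38, where 0.124% and 0.0869% of all genes (27 and 19 genes) had one. The difference of 38 genes between the groups had an exact two-sided permutation p of 0.333, the smallest that 4 libraries can give. The control lists were short, with 308 and 124 peaks against 31909 and 38580, and a list holds called peaks only, so signal below the caller's limit in the control was not measured.

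Of the 38 genes, 37 kept a reproducible promoter site, defined as a stretch covered in both replicates by peaks with a fold enrichment and a −log10 q each above 6, a length under 10000 bp and no overlap of 10 bp or more with a control peak. The share over all protein-coding genes was 39.3%. The exception was Pars2, the mitochondrial prolyl-tRNA synthetase, whose peak in replicate 1 had a fold of 5.30 and a −log10 q of 5.52. With a minimum fold of 10 in place of 6, 26 of the 38 kept a site, 18 of 21 cytoplasmic and 8 of 17 mitochondrial genes, against 19.8% of all genes.

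**Figure D1:**
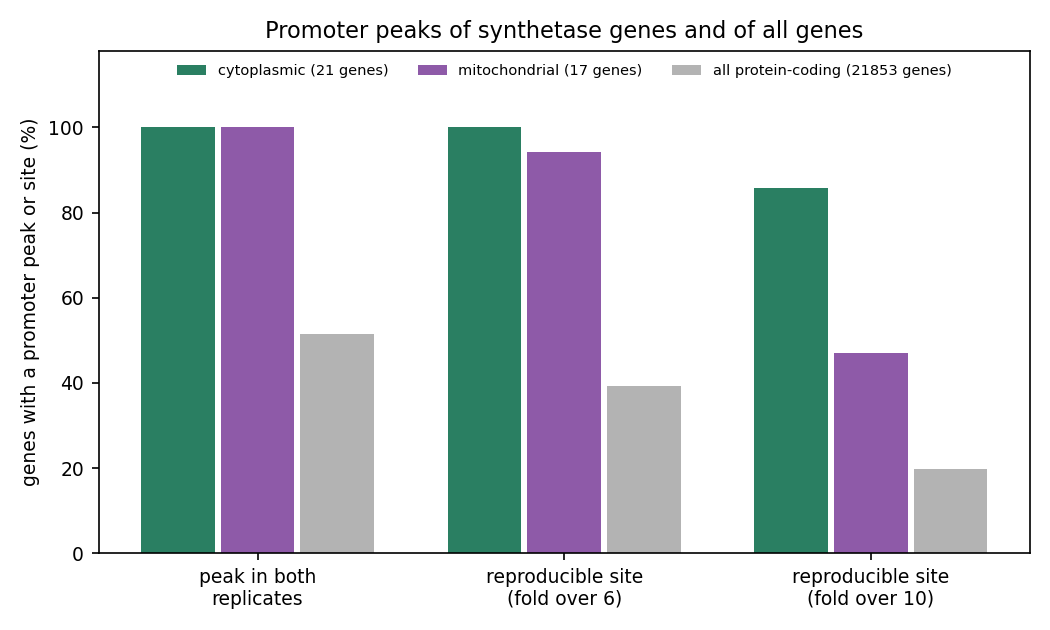
Bars give the percentage of cytoplasmic synthetase genes (21), mitochondrial synthetase genes (17) and all protein-coding genes (21853) with a promoter peak in both Foxr2 p53LOF replicates, with a reproducible site, and with a reproducible site at a minimum fold of 10. The synthetase bars stand above the gray bars in each set, and the mitochondrial bar drops to 8 of 17 at the stricter minimum while the cytoplasmic bar holds 18 of 21.

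The fold enrichment of a peak is the fragments at its summit plus 1, divided by the library background plus 1, and each gene takes its highest promoter peak. Counts at the summit were recovered from the deposited folds and p-values, with a background of 1.26 fragments in replicate 1 and 2.04 in replicate 2, and the 95% intervals given here are exact Poisson intervals of those counts, taken at the highest point of the peak, and cover counting error only. Over genes with a peak in both replicates, the median of the lower of both folds was 8.84 for all genes, 13.4 for the 38 synthetase genes, 17.2 for the cytoplasmic genes and 9.53 for the mitochondrial genes. In replicate 1 the cytoplasmic folds ran from 7.51 to 36.2 with a median of 17.2, and the mitochondrial folds from 5.30 to 31.4 with a median of 10.2. In replicate 2 they ran from 10.2 to 38.8 with a median of 19.4, and from 6.90 to 38.1 with a median of 10.8. The cytoplasmic median was 1.70 and 1.79 times the mitochondrial median in replicates 1 and 2, a gap larger than that between the replicates, but the ranges overlapped, and in each replicate 3 mitochondrial genes lay above the cytoplasmic median.

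Ranked by the lower fold among all genes with a peak in both replicates, 19 of the 21 cytoplasmic genes and 9 of the 17 mitochondrial genes lay above the median of all. At or above the 75th percentile were 16 cytoplasmic and 6 mitochondrial genes, and at or above the 90th were 10 and 2. The mitochondrial genes thus spread over the ranks of the genome, with a median percentile of 56.8, against 89.0 for the cytoplasmic genes. A fold was higher in replicate 2 than in replicate 1 for 24 of the 38 (63.2%), against 71.8% of all genes with a peak in both.

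**Figure D2:**
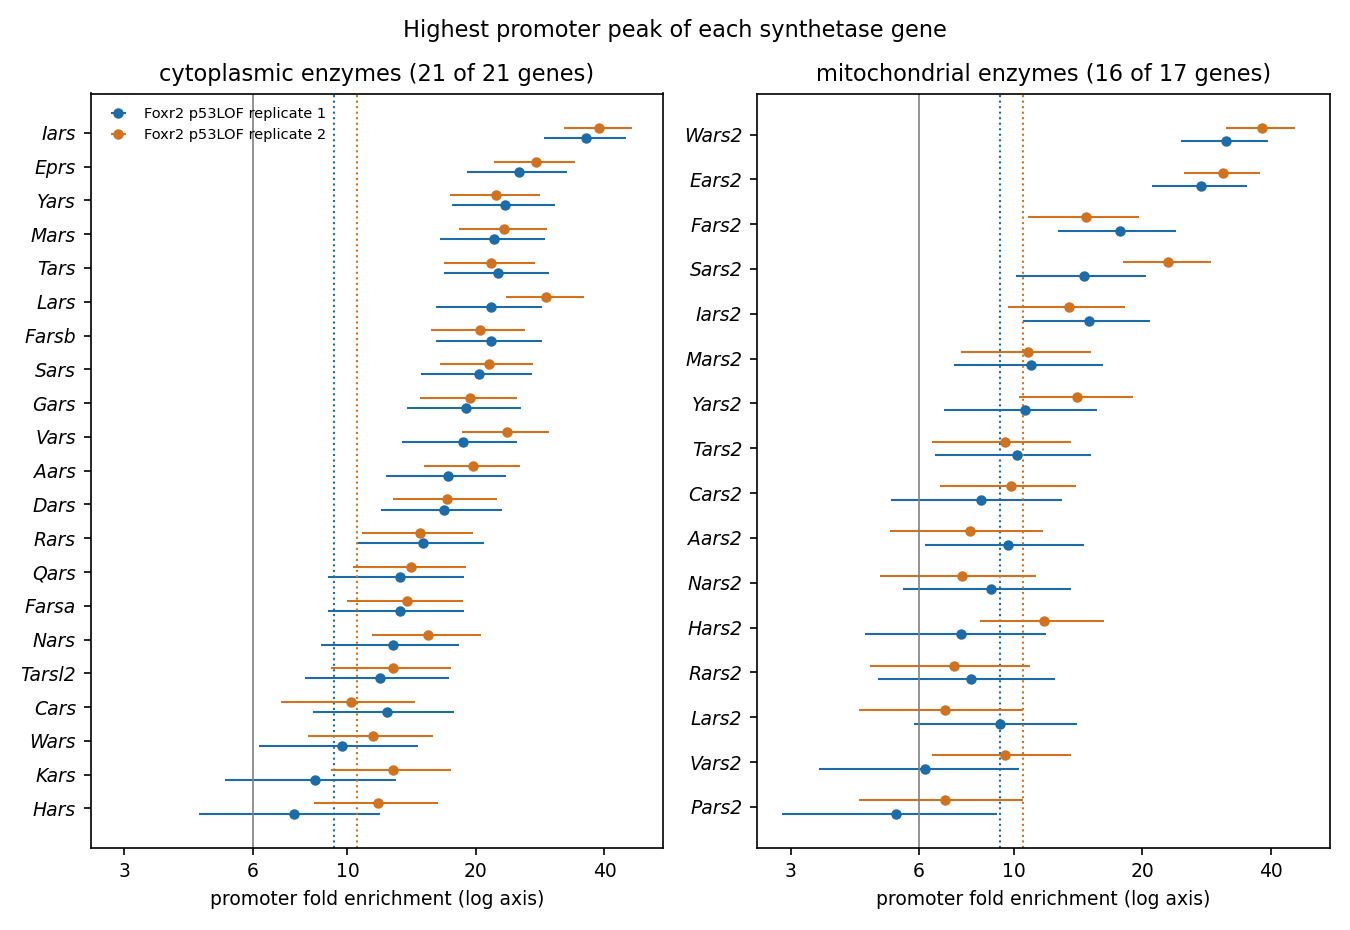
Points give the fold enrichment (log axis) of the highest promoter peak of each gene in Foxr2 p53LOF replicates 1 and 2, with 95% counting intervals. Dotted lines give the median of all genes with a peak in both replicates (9.28 and 10.5), and the gray line the minimum fold of 6. All but 1 of the 38 genes are drawn. Most cytoplasmic genes lie to the right of the dotted lines, while the mitochondrial genes lie on both sides.

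Among the cytoplasmic enzymes, Iars, which charges isoleucine, had the highest promoter peak, with folds of 36.2 (81 fragments, interval 28.9 to 44.9) and 38.8 (117 fragments, interval 32.1 to 46.4). This peak lay at chr13:49681049-49684844 in replicate 1 and stood at the 99.4th percentile of all genes. Eprs, whose product charges both glutamate and proline, followed by the lower fold, with 25.2 and 27.6 (56 and 83 fragments) at chr1:185361535-185366527. Yars, for tyrosine, had 23.4 and 22.3. Mars, for methionine, had 22.1 and 23.3. Tars, for threonine, had 22.5 and 21.7, and Lars, for leucine, had 21.7 and 29.2. In both replicates, each of these 6 genes lay above the cytoplasmic median of that replicate.

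Other cytoplasmic genes lay below these by the lower fold. Farsb had folds of 21.7 and 20.4, and Farsa 13.3 and 13.8, although both encode subunits of the same phenylalanine enzyme. Sars had 20.3 and 21.4, Vars 18.6 and 23.7, Aars 17.2 and 19.7, and Dars 16.8 and 17.1. The enzymes for arginine, glutamine and asparagine lay near Farsa, with 15.0 and 14.8 at Rars (summits more than 1 kb from its start), 13.3 and 14.1 at Qars, and 12.8 and 15.4 at Nars. Tarsl2, the second cytoplasmic threonine gene, had 11.9 and 12.8, about the level of Cars with 12.4 and 10.2. Along the order of the 21 cytoplasmic genes, the counting intervals of all 20 neighbouring pairs overlapped in at least 1 replicate, as did those of all 16 mitochondrial pairs, so single steps in either order are not resolved.

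By the lower fold, the 3 lowest cytoplasmic peaks were at genes that share a promoter region. Wars had 9.72 and 11.5, Kars had 8.39 and 12.8, and Hars had 7.51 and 11.8. Gars and Kars, which serve both compartments, stood apart from each other, Gars with 19.0 and 19.4 (42 and 58 fragments) and Kars with 18 and 38 fragments, and their intervals did not overlap in replicate 1 (13.8 to 25.5 against 5.16 to 13.0) but did in replicate 2 (14.8 to 25.0 against 9.16 to 17.5). The 8 cytoplasmic genes of the multisynthetase complex had a median lower fold of 19.2, and the 13 outside it had 17.2. By the catalytic class of the enzyme, the median was 13.4 for class I and 13.3 for class II, leaving out Eprs, which holds a domain of each. Within cytoplasmic genes, class I had 18.6 and class II 16.8.

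Among the mitochondrial enzymes, Wars2, for tryptophan, had folds of 31.4 (70 fragments, interval 24.6 to 39.5) and 38.1 (115 fragments, interval 31.5 to 45.7) at chr3:99139527-99142319. Ears2, for glutamate, had 27.4 and 30.9 (61 and 93 fragments). Only these mitochondrial genes reached the 90th percentile of all genes. Fars2 had 17.7 and 14.8, and Iars2 15.0 and 13.5. Sars2 differed most between replicates among these, with 14.6 (32 fragments, interval 10.1 to 20.4) and 23.0 (69 fragments, interval 18.0 to 29.0), intervals that overlap.

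The mitochondrial genes listed next ranked no higher than the 66.6th percentile of all genes by the lower fold. Mars2 had 11.0 and 10.8, Yars2 10.6 and 14.1, Tars2 10.2 and 9.53, and Aars2 9.72 and 7.88. Lars2 had 9.28 and 6.90, Nars2 8.84 and 7.56, Cars2 8.39 and 9.86, and Rars2 7.95 and 7.23. By the lower fold, the weakest were Vars2, with 6.19 and 9.53, and Pars2, with 5.30 (11 fragments, interval 2.87 to 9.14) and 6.90 (20 fragments, interval 4.34 to 10.5). A fold above 6 needed 13 fragments in replicate 1 and 18 in replicate 2, so Pars2 fell 2 fragments short in replicate 1.

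Setting enzymes for the same amino acid side by side gave 19 pairs over 17 amino acids. The cytoplasmic gene had the higher fold in both replicates in 14 pairs, and the mitochondrial gene in 3. In 6 of the 14 the counting intervals did not overlap in either replicate, namely Iars over Iars2, Lars over Lars2, Mars over Mars2, Eprs over Pars2, Tars over Tars2 and Vars over Vars2. As a ratio, the widest of these in replicate 1 was Eprs at 25.2 against Pars2 at 5.30. The 3 pairs in the other direction were Wars2 over Wars, Ears2 over Eprs and Fars2 over Farsa. Wars2 over Wars was the only one with intervals apart, 31.4 against 9.72 in replicate 1 and 38.1 against 11.5 in replicate 2. Sars and Sars2 changed order between replicates, and Hars and Hars2 had the same peak. Pairs with Eprs, Fars2 or Tars2 share a gene and are not independent, and the fold of Rars, counted above Rars2, was read outside the promoter window.

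**Figure D3:**
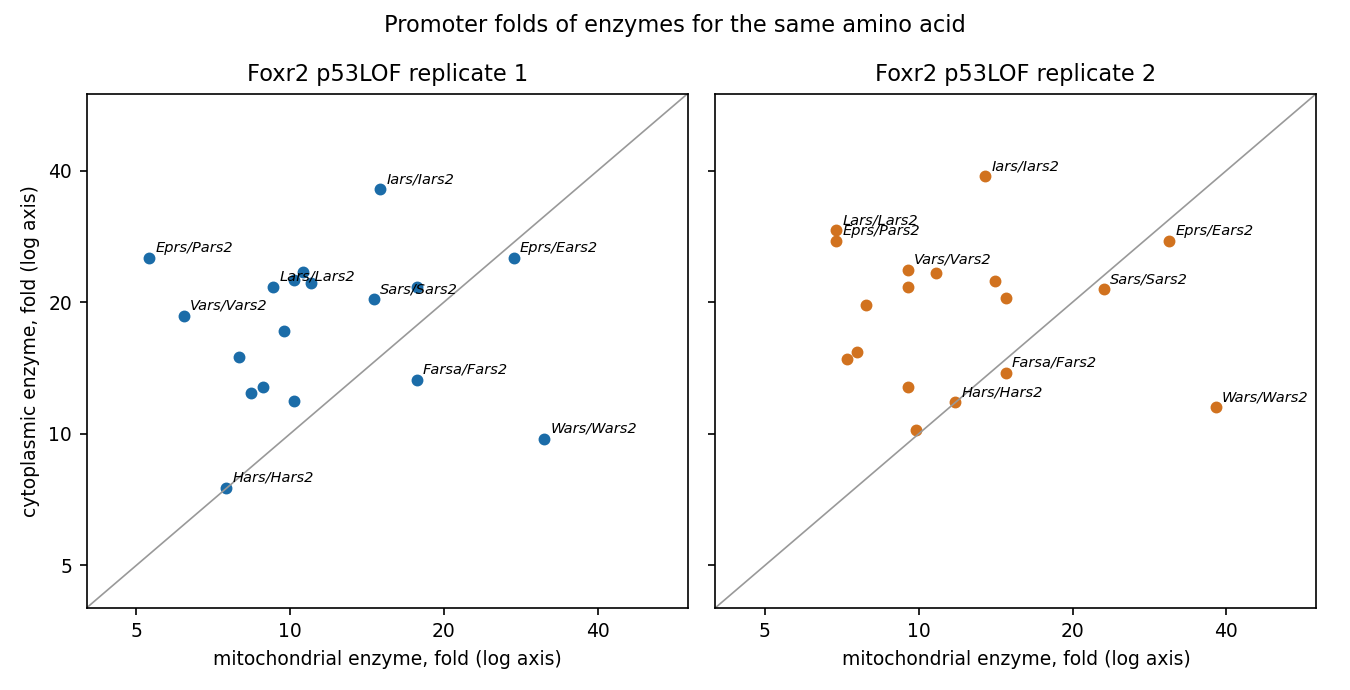
Each point is a pair of genes for the same amino acid in 1 Foxr2 p53LOF replicate, with the fold of the mitochondrial gene on the horizontal axis and that of the cytoplasmic gene on the vertical axis (both log), with 1 pair not drawn. Points above the gray line of equal folds have the higher cytoplasmic peak, 14 of 19 pairs in both replicates, and Wars/Wars2 lies farthest below it.

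Several synthetase genes share their promoter region with a neighbour. Within 1 kb of their start, 10 of the 38 genes had the start of another protein-coding gene on the opposite strand, 4 cytoplasmic and 6 mitochondrial, where 11.4% of all genes did. All 10 peaks also covered that other start, so the peak cannot be assigned to either gene. Hars and Hars2 start 26 bp apart on chromosome 18 and share 1 peak of 16 and 35 fragments. Rars2 starts 13 bp from Orc3, Yars 33 bp from S100pbp, Kars 75 bp from Terf2ip, Ears2 88 bp from Ubfd1, Wars 98 bp from Wdr25, Fars2 114 bp from Lyrm4 and Sars2 182 bp from Mrps12. The median lower fold was 9.06 for the 4 cytoplasmic genes with such a neighbour and 18.6 for the 17 without. For mitochondrial genes the order was the other way, 14.5 for the 6 with a neighbour and 8.39 for the 11 without, and over all genes it was 10.8 with and 8.21 without. Without shared promoters the cytoplasmic and mitochondrial medians were therefore farther apart than over all members.

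Folds also differed between chromosomes, with medians of the lower fold over all genes of 10.2 on chromosomes 1, 3 and 15, 11.0 on 11 and 11.5 on 13, against 7.51 on 18. Divided by the median of its own chromosome, Iars stood at 3.15, Ears2 at 3.26, Wars2 at 3.09, Lars at 2.88, Yars at 2.83, Mars at 2.78 and Eprs at 2.48. The lowest were Pars2 at 0.672, Vars2 at 0.778 and Lars2 at 0.875. The copy number of these chromosomes in the line was not tested.

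Peaks at the synthetase promoters had a median length of 2247.5 bp and 2746 bp in the replicates, against 1842 bp and 2190 bp over all genes with a peak in both. The cytoplasmic medians were longer, 2475 bp and 3100 bp. The mitochondrial medians, 1755 bp and 2021 bp, lay below those of all genes. Summits of the synthetase peaks lay mostly downstream of the start, inside the gene. The summit was downstream of the nearest protein-coding start for 35 of the 38 genes in replicate 1 and 32 in replicate 2, against 55.7% and 52.9% of all genes with a peak in both. Members without an opposite-strand neighbour gave 26 of 28 and 23 of 28, against 57.6% and 54.3% of all such genes. Taking the 5′-most start instead gave 35 and 33 of 38, against 64.2% and 61.0%. The median summit lay 134 bp and 136 bp downstream, where the median over all genes was 54 bp and 34 bp, and 31 and 34 of the 38 summits were within 300 bp of a start, against 66.0% and 67.4% of all genes with a peak in both.

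In replicate 1, 16 of the 38 summits fell in an intron, 11 in an untranslated exon, 8 in a coding exon and 3 upstream of the gene. In replicate 2 the counts were 13, 11, 9 and 5. Summits of both replicates were a median of 68 bp apart, and 28 of the 38 were within 300 bp. Yars2 was the only gene with the summit upstream in both, at -241 and -164 bp. Eprs had its summits inside the first part of the gene, at 484 and 848 bp. Rars was the outlying case, with the summit 1964 bp downstream in replicate 1 and at -4285 bp in replicate 2, where its peak was 9596 bp long, so neither of its folds was measured inside the promoter window.

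**Figure D4:**
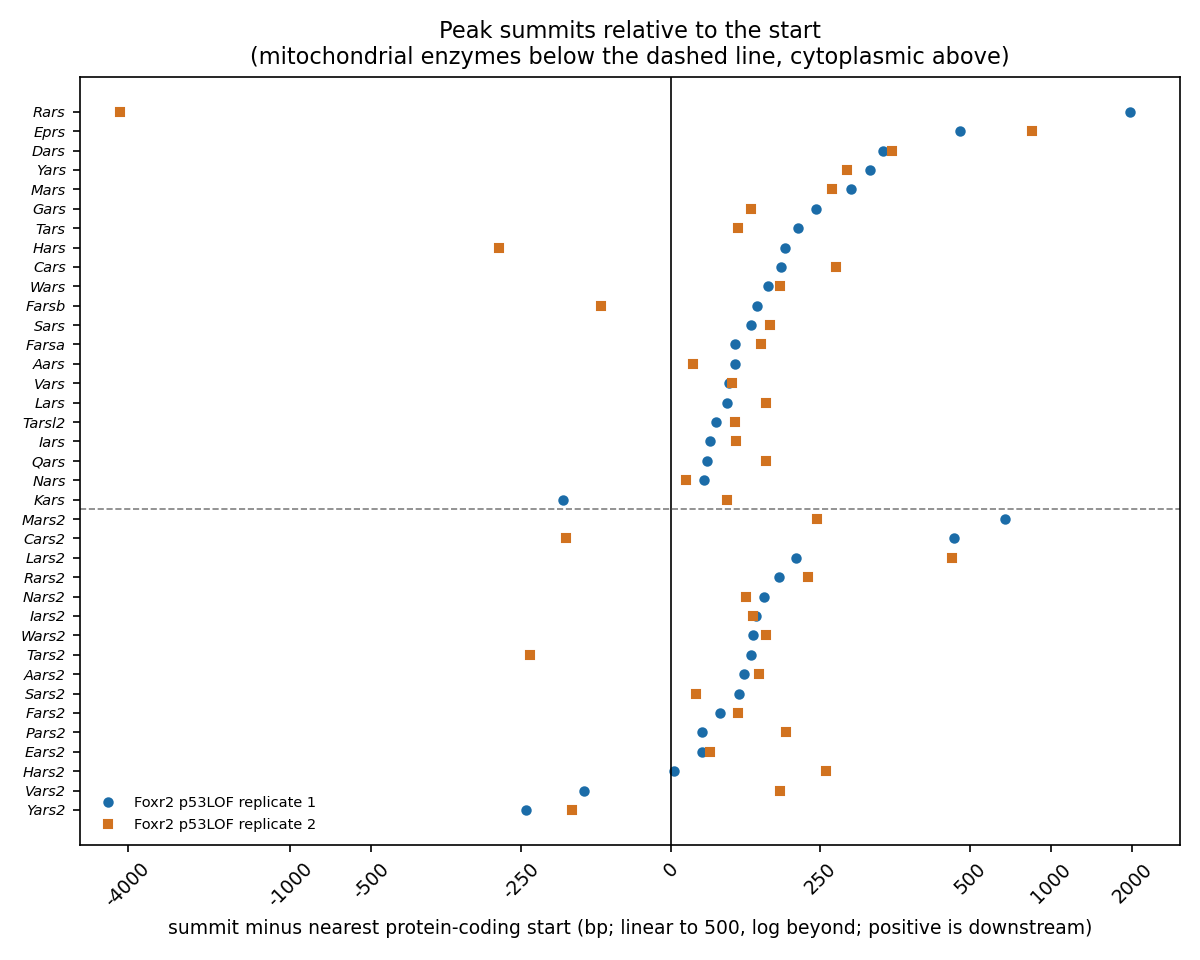
Points give the distance from the nearest protein-coding start to the summit of the highest promoter peak (bp, linear to 500 and log beyond, positive downstream) of each gene in both Foxr2 p53LOF replicates, with 1 gene not drawn. Most points lie to the right of the start, 35 of 38 in replicate 1 and 32 of 38 in replicate 2, and Rars is the farthest on both sides.

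Base composition of the promoters was close to that of other genes. Over the 300 bases from 250 before to 50 after the RefSeq start, the 28 matched members had a median GC content of 57.8% (range 48.3% to 71.7%), against 57.0% over all genes matched. Of the 12586 matched genes at or above 48.3%, 65.6% had a promoter peak in both replicates and 51.2% had a reproducible site. The shares over all matched genes are not given here, so matching and GC content cannot be told apart.

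Each of 4 sequences was searched in these 300 bases on both strands, and none of the 4 contains another. The CARE sequence TGATGCAA was in 4 of the 28 promoters (14.3%) against 0.938% of the 16516 promoters of all genes matched. All 4 were cytoplasmic, with the first base at position -112 in Aars, -15 in Tars, 4 in Yars and 8 in Iars, counted from the RefSeq start with no position 0, and none of the 14 mitochondrial promoters held it. Aars, Tars, Yars and Iars ranked at the 89.0th to the 99.4th percentile by fold, where the median percentile of all cytoplasmic genes was 89.0. Whether CARE goes with the fold was not tested. The ETS core CCGGAAG was in 9 promoters (32.1%) against 12.3%, 5 cytoplasmic (Farsa, Gars, Kars, Mars and Sars) and 4 mitochondrial (Cars2, Mars2, Rars2 and Sars2). The E-box CACGTG was in 5 (17.9%) against 8.11%, 4 cytoplasmic (Aars, Farsb, Iars and Tars) and 1 mitochondrial (Ears2). The CRE sequence TGACGTCA was in 0 against 2.43%. The members were chosen as a family with related functions, so these shares are descriptions without a test.

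At the summits themselves, only the E-box was found among these sequences. In the 200 bp around the summit, the ETS core was found at none of the 38 genes in either replicate, where 5.02% and 5.20% of the windows of all promoter peaks held it. CARE and CRE were also at 0 of 38 in both replicates, against shares from 0.246% to 0.370%. The E-box lay in 1 window in replicate 1 (2.63%), at Vars, against 4.59% of all windows. In replicate 2 it lay in 3 windows (7.89%), at Vars, Farsb and Tars, against 4.34%. With 38 genes, each of these member shares rests on few windows. The sequences in capitals above all lay outside the summit windows of both replicates. This follows in part from the layout, since the bases shown precede the RefSeq start and most summits lay downstream of a start.

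The 12 partner genes act beside the synthetases. Of these, 11 had a promoter peak in both Foxr2 p53LOF replicates and 8 had a reproducible site, against 51.5% and 39.3% of all protein-coding genes. None had a control peak, and the median lower fold of the 11 was 8.84, equal to that of all genes. Among the scaffold proteins of the multisynthetase complex, Aimp2 had 25.6 and 25.0 and Eef1e1 23.0 and 19.1, the highest of the list in both replicates, and Aimp1 had 13.7 and 11.5. Aimp1 and Aimp2 have the start of another gene on the opposite strand nearby, Tbck at 20 bp and Pms2 at 117 bp.

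The amidotransferase subunits that make mitochondrial glutaminyl-tRNA were uneven, with 16.8 and 16.1 at Gatb, 10.2 and 12.5 at Gatc, and 8.39 and 4.93 at Qrsl1, which had no site. Mtfmt, which formylates the mitochondrial initiator tRNA, had no peak in replicate 1 and a fold of 5.59 in replicate 2. In selenocysteine synthesis, Pstk had 5.30 and 6.90 with no site, and Sepsecs had 6.19 and 7.88. Of the enzymes that hydrolyse mischarged tRNA, Aarsd1 had 8.84 and 10.2, Dtd2 6.63 and 9.20, and Dtd1 4.42 and 8.54 with no site.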

How the data were processed

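V5 CUT&RUN was performed on 4 libraries, 2 of Foxr2 p53LOF and 2 of V5 control. Per the methods and the submitters' processing notes, reads were trimmed with Trimmomatic (0.39), aligned to mm10 with BWA (0.7.17), cleared of duplicates with Picard (2.26.6) and used by the authors for peak calling with MACS2 (2.2.7.1) in each library. No input library is named in the methods. The deposited lists hold, for each peak, a fold (a ratio that the authors made with MACS2), the −log10 p and −log10 q values that the authors made in each library, a deposited score (10 times the −log10 q, without its decimals) and the summit position, another deposited column. The deposited lists still held peaks that fail the authors' filters, which were applied here except the last, a match to open chromatin in snATAC-seq, which was not used.

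The background of each library was the value, tried every 0.0005 between 0.3 and 4, with which folds up to 30 give whole fragments (within 0.02) and the deposited p-values. It was 1.26 and 2.04 fragments in Foxr2 p53LOF and 1.69 and 0.642 in the control replicates. Read totals were not used. Genes and starts came from GENCODE M21, and promoters and sequence from RefSeq GRCm38.p6. Mars was matched as Mars1. Positions count from 1. Where several peaks lay at a promoter, the highest was used. Values by library are given for all members but 1, which is counted in totals and not reported singly here, the rule asking for the 6 highest of each compartment, genes that fail a filter, shared peaks, Gars, Kars and the partners. Python 3.11.15, pandas 2.3.3, numpy 2.4.6 and scipy 1.17.1 were used. The background recovery, the promoter overlap, the overlap of replicates and the control filter were tested on simulated data, and the other steps were not. The only test was an exact permutation over libraries. Members, partner genes, motifs and alternatives were chosen with earlier results of these data known, and 2 alternatives were added after the values here were seen. Alternatives changed the window, the start, the summit, the minimum fold and q, the length limit, the overlap, the control filter and the replicates.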

Additional observations from a re-analysis of the deposited data

How the results depend on the processing

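Of 73 recomputed values, 66 stayed within 1.5 times the count or within the spread between replicates, and 7 moved. The number of mitochondrial genes with a reproducible site fell from 16 to 8 at a minimum fold of 10. Leaving out each replicate in turn, the median fold ranged from 17.2 to 19.4 for cytoplasmic and from 10.2 to 10.8 for mitochondrial genes. The mitochondrial median of 9.53 became 8.84 with folds scaled to their chromosome, 10.1 with the peak shared with Hars counted once, and 10.1 with reproducible sites only, chosen after seeing the data. Single genes lost their call elsewhere, Pars2 at a fold or −log10 q above 6, Rars with the summit required inside the window, Tars2 with the 5′-most start only, and Dars and Rars with an overlap of 50% of each peak. With replicate numbers as a replicate block, the paired difference between groups was 38 genes (exact p = 0.5, the smallest that 2 pairs can give). Its other alternatives gave 37.5 to 38 genes and an exact permutation p of 0.333. The depth limits folds near 6, which rest on 13 to 18 fragments, and control signal below the caller's limit was not seen.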

Other observations

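Beyond the promoter, 4 synthetase genes held another reproducible site in the gene body, where 8.29% of all protein-coding genes did, with a median gene length of 27987 bp for the 38 members and 17380 bp for all genes. In Lars2, sites at chr9:123384891-123386335 (folds 6.19 and 6.57) and chr9:123387211-123389013 (8.84 and 10.5) lay in introns, where the Lars2 promoter had 9.28 and 6.90, so the order of the second site and the promoter differed between replicates. In Sars, a site at chr3:108432292-108434527 centred in an intron 11734 bp from the nearest start had folds of 11.5 and 16.1, below the promoter's 20.3 and 21.4. In Fars2, a site at chr13:36578095-36579315 lay in an intron 448805 bp from the start, with 7.51 and 9.53. In Aars, the site at chr8:111055519-111057442 (9.72 and 11.8) lay in an untranslated exon within 1 kb of the start of Exosc6.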
